A study of Homo sapiens with 39 samples.

Results

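The 2 B-lineage cell lines IM9 and U266 were compared over all arrays of cells that had received no ch128.1Av, the antibody fusion protein used elsewhere in the study. These were 20 of the 39 arrays of the study, chosen by their labels alone, with 10 arrays of IM9 and 10 of U266. Each line gave 2 arrays of untreated cells at 0 h and 2 arrays of cells kept with buffer for 1, 3, 9 and 24 h. Cells of both lines stood in 24-well plates at 37ºC, and the labels call IM9 sensitive and U266 tolerant to ch128.1Av. The comparison asks which genes differed between the lines at every one of the 5 hours. Each cell type is represented by 1 line, and the labels do not say that the replicates were separate cultures, so p values here measure only the spread between these samples.

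IM9 is a lymphoblastoid line, which is a mature B cell driven to divide by Epstein-Barr virus. Such cells carry the surface and activation genes of a B cell that has met antigen, among them CD40, CD23 and CCR7. U266 is a line from a multiple myeloma, a tumour of plasma cells, the end stage of the B cell lineage. On the way to that stage the factor PRDM1 shuts down the B cell programme, including the master regulator of MHC class II. The factor XBP1 builds up the machinery for secretion.

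Illumina BeadChips read total RNA as probe intensities, given here on the log2 scale after background correction and normalization. A difference is IM9 minus U266, fitted with the hour as a block, so a positive value is higher in IM9, and 1 unit is a doubling. It carries its standard error (SE, from 10 arrays of each line) and limma's adjusted p. Since nearly all genes differed by some amount, most counts below use a stricter call, an adjusted p under 0.05 in a test that the difference exceeds 2-fold. Where a gene was not well above background on 1 or more arrays of the dim line, its fold is written as "at least". Such a fold sets the bright line's mean against the higher of the gene's own level and the lowest level that passed detection on each array of the dim line. Levels of different genes come from different probes and are not compared with each other.

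Of 11076 genes tested, 9234 (83.4%) differed between the lines at an adjusted p under 0.05, 4556 of them (41.1%) higher in IM9 and 4678 (42.2%) higher in U266. The 11076 include 1038 probes without a gene symbol, each counted as a gene. By more than 2-fold, 2958 (26.7%) differed, of which 1444 (13.0%) were higher in IM9 and 1514 (13.7%) higher in U266. For 332 of them the dim line was near background and the bound on the fold was under 2. The count was 1961 with the deposited log2 values and 1616 with the deposited detection p. The median absolute difference was 0.64, and 41.6% of genes differed by less than 0.50. The median difference of all genes was -0.01. At the far end, 66 genes were higher in IM9 by 6 or more on the log2 scale and 48 were higher in U266 by as much. Arrays of different lines correlated at 0.769 to 0.782 across genes, arrays of 1 line at different hours at 0.984 to 0.994 and replicate arrays at 0.992 to 0.997. Genes are not independent replicates, and these values describe the arrays only. The first principal component held 92.9% of the variance and separated the lines.

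**Figure D1:**
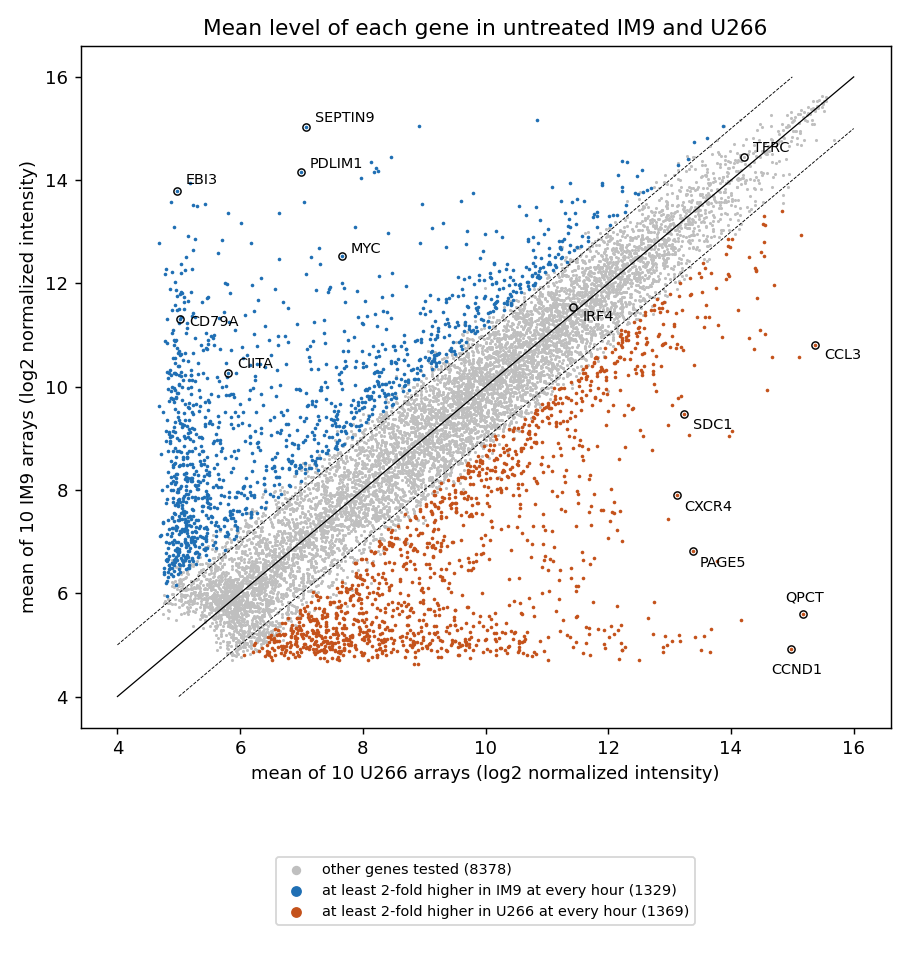
Mean level of each of the 11076 genes tested over the 10 U266 arrays (horizontal) and the 10 IM9 arrays (vertical), in log2 normalized intensity; the solid line marks equal levels and the dashed lines a 2-fold difference. The 1329 blue genes had fitted values at least 2-fold higher in IM9 at every hour and the 1369 orange genes in U266, while TFRC and IRF4 lie near the line of equal levels.

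The array set was uneven in brightness and in the raw intensity of its dim probes, and both moved with line and hour. Array brightness, taken as the 75th percentile of raw intensity over the 5th, was 4.52 to 6.45 on the IM9 arrays of 0 to 9 h and 9.24 and 9.29 at 24 h. In U266 it was 6.55 to 11.7 at 0 to 3 h and 4.23 to 6.02 at 9 and 24 h. The 5th percentile itself was 134 to 144 on the IM9 arrays of 0 to 9 h and 107.4 and 106 at 24 h. On the U266 arrays the 5th percentile was 92 to 108.5 at 0 to 3 h and 118 to 153.7 at 9 and 24 h. The number of probes detected was 9290 to 10229 per array. Which chip each array sat on is not given in the sources used here, so line and chip cannot be told apart. With brightness as a covariate the count of genes differing by more than 2-fold was 2984, and with the 5th percentile 2890.

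Most differences of more than 2-fold were also at least 2-fold at every hour, in 1312 of 1444 genes higher in IM9 and 1364 of 1514 higher in U266. Their size could still change with the hour, as given further on. At every one of the 5 hours, 2698 genes (24.4%) were called and differed at least 2-fold in 1 direction, 1329 higher in IM9 and 1369 higher in U266. With the deposited detection p the count was 1472, and for 277 of the 2698 the bound on the fold was under 2. Detection split these genes: 564 of the IM9 genes were not well above background on any U266 array, and 590 passed on all 20 arrays. For the U266 genes the corresponding counts were 532 and 613. Over all genes tested, 5878 (53.1%) had no overlap between the 10 IM9 and the 10 U266 arrays.

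The 19 arrays treated with ch128.1Av gave a separate measurement of the same difference, in samples that the untreated comparison did not use. There, 2918 genes (26.3%) differed by more than 2-fold, 1436 (13.0%) higher in IM9 and 1482 (13.4%) higher in U266. Of the genes higher in IM9 at every hour, 1278 of 1329 passed that test in the treated arrays, and of those higher in U266, 1316 of 1369. None was called the other way, and all kept their sign.

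Of the 12 genes with the largest fitted difference in favour of IM9, all but SEPTIN9 were below background in U266, so the fitted values give them no order. EBI3, the shared subunit of interleukins 27 and 35, had its lowest, median and highest IM9 array at 13.53, 13.81 and 13.93, against 4.69, 4.94 and 5.41 in U266. It was at least 194-fold higher in IM9 (difference 8.83, SE 0.0815, adjusted p = 9.21e-23 against the 2-fold margin, limma). Genes of this group were picked for large differences with no overlap between the lines, so the gap between arrays restates that rule. FCER2, the low-affinity IgE receptor CD23, was at least 162-fold higher and CCR7, the receptor that guides B cells into lymph nodes, at least 87.4-fold. GPR183, an oxysterol receptor that positions activated B cells in the follicle, was at least 119-fold higher. RFTN1, a lipid raft protein of the B cell receptor, was at least 96.7-fold higher.

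The other members of that group are not B cell markers. BASP1, a membrane-bound signalling protein first described in neurons, was at least 168-fold higher in IM9, and the collagen-modifying enzyme P3H2 at least 161-fold. MFNG, a glycosyltransferase that modifies Notch receptors, was at least 158-fold higher. SCARB1, the receptor for high-density lipoprotein, was at least 144-fold higher, GSTO1, an omega-class glutathione transferase, at least 106-fold, and LYSMD2 at least 67.6-fold. SEPTIN9, a cytoskeletal GTPase, was detected on all 20 arrays: 14.93 to 15.22 in IM9 (median 14.99) and 6.66 to 7.44 in U266 (median 7.06), a 248-fold difference.

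At the U266 end all 12 such genes were below background in IM9 and again have no order. They included CCND1, a D-type cyclin that translocations activate in a subset of myelomas. Its U266 arrays ran from 14.83 to 15.10 with a median of 14.99, and its IM9 arrays from 4.76 to 5.17 with a median of 4.90. It was at least 432-fold higher in U266 (difference -10.06, SE 0.0466, adjusted p = 1.16e-26). QPCT, a glutaminyl cyclase that closes the amino end of secreted peptides, was at least 496-fold higher in U266 (difference -9.59, SE 0.0907). In both genes every U266 array stood above every IM9 array, which the rule for this group required.

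Of the other U266 genes, JSRP1, a junctional protein of the muscle sarcoplasmic reticulum, was at least 247-fold higher, and GTSF1, a germ cell factor of the piRNA pathway, at least 174-fold. RENBP, an epimerase of amino sugars, was at least 162-fold higher. TNS3, which links integrins to actin, was at least 156-fold higher and the calcium-binding protein S100A4 at least 146-fold. SCRN1, the serine protease TMPRSS3 and the carboxypeptidase CPVL were at least 123-fold, 102-fold and 112-fold higher. CT45A1 and MAGEB2, which belong to the cancer-testis genes described further on, were at least 122-fold and 106-fold higher.

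**Figure D2:**
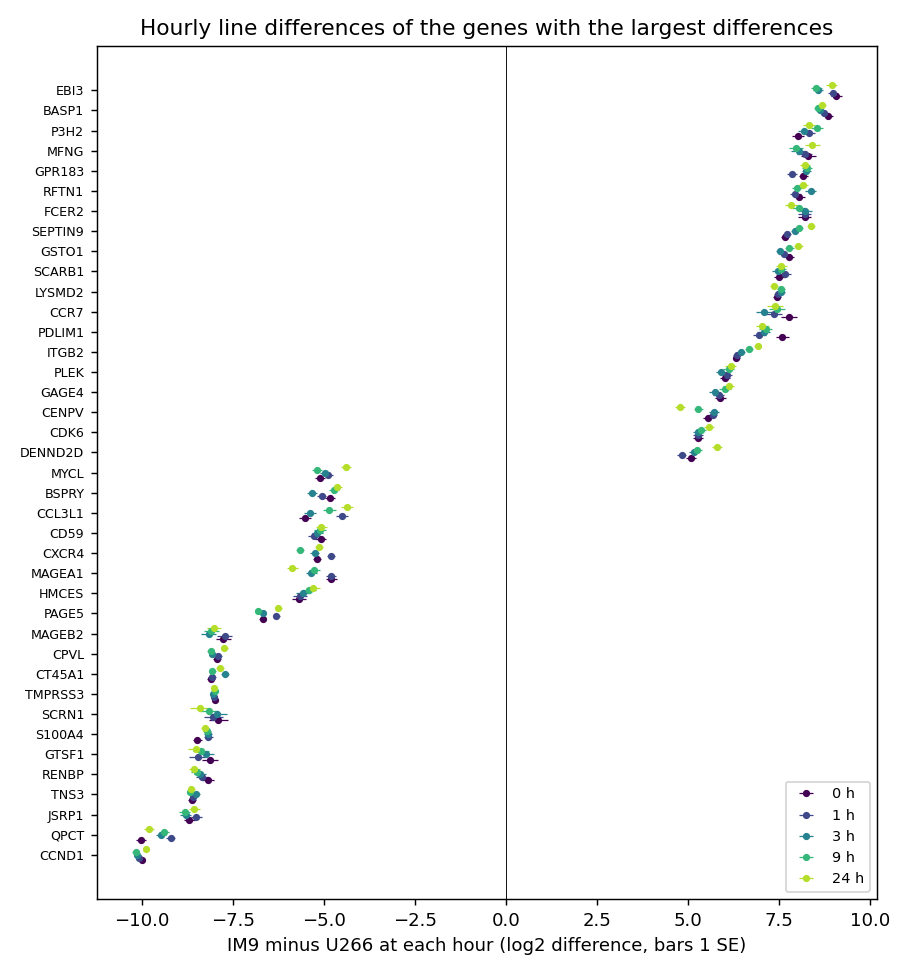
Difference between the lines (IM9 minus U266, log2) at 0, 1, 3, 9 and 24 h for the genes with the largest differences, with bars of 1 SE from the fit of group means; genes are ordered by their difference over all hours. Where 1 line was below background, as in EBI3 and CCND1, the points stand for bounds and neither their order nor their spread is read; SEPTIN9, PDLIM1 to DENND2D and MYCL to PAGE5 were detected on all 20 arrays.

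Genes detected on all 20 arrays give folds that no background level limits. After SEPTIN9, the largest in IM9 were PDLIM1, an adaptor of the actin cytoskeleton (144-fold), ITGB2, the beta chain of the leukocyte integrins (93.6-fold), and PLEK, a substrate of protein kinase C in blood cells (66.9-fold). GAGE4, a cancer-testis gene, was 60.8-fold higher, CENPV, a protein of centromeres and microtubules, 42.4-fold, CDK6, a kinase that partners the D-type cyclins, 41.0-fold, and DENND2D, an exchange factor for Rab GTPases, 37.4-fold. In U266 they were PAGE5 (93.8-fold), HMCES, which shields abasic sites in DNA (46.5-fold, and a difference of -1.17 by its second probe), MAGEA1 (37.3-fold) and CXCR4, the receptor that holds plasma cells in the bone marrow (37.1-fold). CD59, an inhibitor of complement, was 35.4-fold higher, the chemokine CCL3L1 30.4-fold, BSPRY, a B-box protein, 30.2-fold, and MYCL, a relative of MYC, 30.1-fold, although its second probe gave a difference of -0.978. Probes for the GAGE, MAGEA and CCL3 families may not tell near-identical copies apart, so these values belong to the family as much as to the named gene.

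Against this background of 13.0% and 13.7%, B cell genes stood almost wholly on the IM9 side. The same shares are the background for the list counts that follow. Of 19 B cell receptor and surface genes tested, 16 were more than 2-fold higher in IM9 and 0 in U266, and their median difference was 3.86, against -0.01 over all genes. At an adjusted p under 0.05 alone, with no margin, 17 were higher in IM9 and 2 in U266. Of the 19, 9 passed detection on fewer than 2 U266 arrays and 1 on fewer than 2 IM9 arrays. Such members entered the test through 1 line only, which largely fixed their direction, and the same applies to the lists below. CD79A, a signalling chain of the B cell receptor, was 11.00 to 11.99 in IM9 (median 11.21) and 4.89 to 5.16 in U266 (median 5.03), and at least 34.96-fold higher. CD40, the receptor for T cell help, was at least 20.5-fold higher, and FCRLA, an intracellular Fc receptor-like protein of B cells, at least 30.1-fold. CD83, an activation marker, was at least 51.4-fold higher (difference 5.78, SE 0.0590) and passed detection on 5 of the 10 U266 arrays. PAX5 and MS4A1 (CD20), on the array, passed detection on fewer than 2 of the 20 arrays and were not tested, so the B cell label rests on the other genes.

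B cell transcription factors were more mixed, with 7 of 17 more than 2-fold higher in IM9 and 2 in U266. IRF8, a factor of germinal centre B cells, was 11.31 to 11.62 in IM9 and 4.69 to 5.43 in U266, and at least 37.9-fold higher. EBF1, which commits cells to the B lineage, was at least 9.95-fold higher and SPI1, which encodes PU.1, at least 4.93-fold. ETS1, a brake on plasma cell differentiation, was 9.47-fold higher. In the other direction, BCL6, the repressor of the germinal centre, was at least 5.67-fold higher in U266, and IKZF1, which encodes the zinc finger protein Ikaros, at least 7.44-fold higher, with 9 of 10 IM9 arrays above background.

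Plasma cell regulators and surface markers gave the reverse count: 11 of 19 tested were more than 2-fold higher in U266 and 3 in IM9, with a median difference of -1.40. SDC1, the syndecan CD138 by which plasma cells are sorted, was 13.10 to 13.39 in U266 (median 13.23) and 9.27 to 9.70 in IM9 (median 9.45), a 13.6-fold difference. CD38, an ectoenzyme of plasma cells, was at least 9.72-fold higher in U266, and CD28, a costimulatory receptor that myeloma cells share with T cells, at least 44.5-fold. NCAM1, an adhesion molecule found on many myelomas, was at least 4.75-fold higher, and CAV1, the caveolae protein, at least 8.38-fold, with 7 IM9 arrays above background. Every one of these 5 had no overlap between the lines, as did 53.1% of all genes tested. They were named for the largest differences of their list, so this is no separate result.

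The 2 drivers of plasma cell fate differed less. PRDM1, which encodes BLIMP1, was 11.52 to 12.23 in U266 (median 11.74) and 9.28 to 10.12 in IM9 (median 9.85), with a difference of -1.998 (SE 0.0787, adjusted p = 1.32e-09). XBP1, the factor that expands the secretory pathway, was 13.37 to 13.68 in U266 and 11.87 to 12.37 in IM9, 2.64-fold apart. IRF4, needed by both activated B cells and myeloma cells, was 11.05 to 11.88 in IM9 and 11.21 to 11.67 in U266. Its arrays overlapped and its difference was 0.12 (SE 0.078). TNFRSF17, the plasma cell survival receptor BCMA, was 4.56-fold higher in U266 but high in both lines, at 14.88 to 15.33 and 12.71 to 13.28. TNFRSF13B, the related receptor TACI, went the other way and was at least 87.9-fold higher in IM9, with 7 of 10 U266 arrays above background. MZB1, a chaperone of immunoglobulin assembly, was 3.33-fold higher in IM9.

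Of the immunoglobulin genes listed, only IGLL1, a surrogate light chain, had a probe matched by symbol. It was at least 5.18-fold higher in U266, with 1 of 10 IM9 arrays above background. Fc receptor and Fc receptor-like genes were split, 5 of 8 more than 2-fold higher in IM9 and 2 in U266. FCMR, the receptor for IgM, was at least 55.7-fold higher in IM9, where 1 U266 array passed detection, and FCRL5, a surface protein of plasma cells, was at least 11.7-fold higher in U266.

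**Figure D3:**
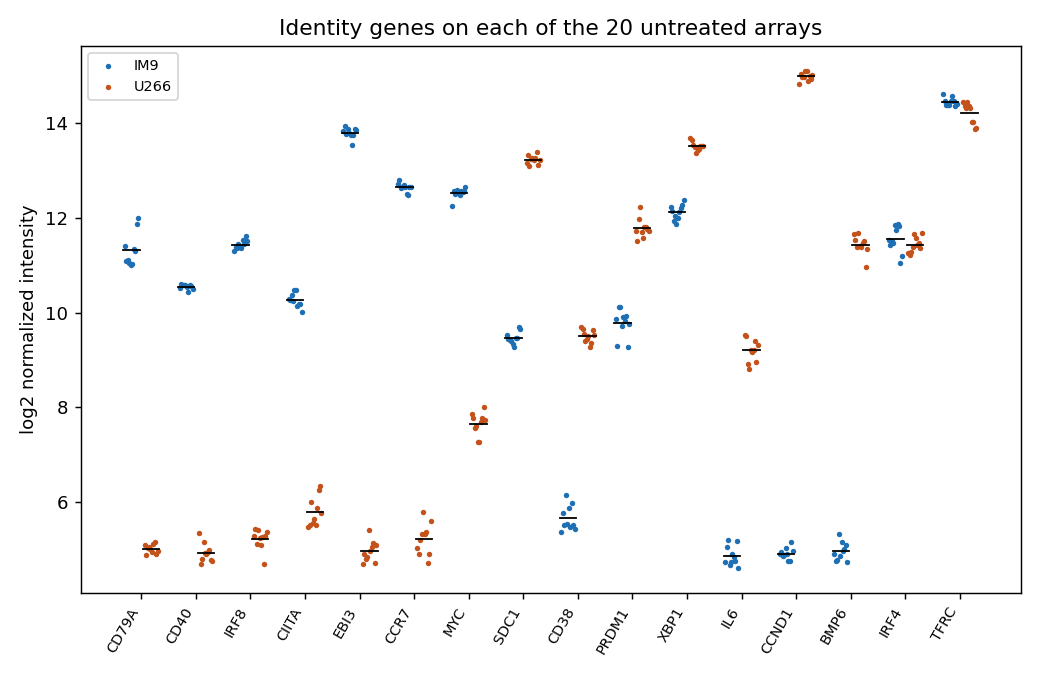
Log2 normalized intensity of 16 genes on each of the 10 IM9 arrays (blue) and the 10 U266 arrays (orange), in order of hour and replicate from left to right within a gene; the black bar is the mean of a line. The first 7 genes are high in IM9, SDC1 to BMP6 are higher in U266, and the arrays of IRF4 and TFRC overlap.

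MHC class II genes, which present antigen to helper T cells, were higher in IM9 in 13 of 17 cases and in U266 in 1, with a median difference of 2.04. CIITA, the transactivator that switches the class II genes on, was 10.02 to 10.48 in IM9 (median 10.26) and 5.49 to 6.34 in U266 (median 5.71), and 2 of the U266 arrays passed detection. Its difference was 4.47 (SE 0.110, at least 16.7-fold). HLA-DOA, which modulates peptide loading, was at least 18.9-fold higher in IM9, with 1 U266 array above background, HLA-DQB1 12.8-fold and HLA-DMB, the loading catalyst, 7.77-fold. HLA-DRB3 was 7.73-fold higher in IM9 and HLA-DRB5 at least 11.0-fold higher in U266. The DRB genes are near-identical and people carry different sets of them, so the probes compare gene content as well as expression. Of 15 class I and peptide loading genes, 1, HLA-F, was more than 2-fold higher in IM9 (4.93-fold) and 0 in U266, and the median difference was -0.23.

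Genes that Epstein-Barr virus and CD40 signals switch on in host B cells were higher in IM9 in 15 of 21 cases and in U266 in 0, with a median of 4.25, the highest of the lists with 6 or more tested members. Beside EBI3, FCER2, CCR7 and CD40 these included SLAMF1, a costimulatory receptor (at least 20.5-fold), and CCL22, a chemokine that draws regulatory T cells (at least 28.9-fold). Of the 21 members, 12 passed detection on fewer than 2 U266 arrays and 0 on fewer than 2 IM9 arrays. Those 12 entered the test through IM9, which largely fixed their direction. Members were also chosen with earlier results of these data known, so the count is a description. The NF-kB subunits and inhibitors that relay virus and CD40 signals differed less. Of 19, 2 were more than 2-fold higher in IM9 and 0 in U266, with a median of 0.14, beside 13.0% and 13.7% of all genes. Those 2 were NFKB1, the p105 and p50 subunit (13.53 to 13.68 in IM9, 11.33 to 11.52 in U266, 4.49-fold), and the kinase IKBKE (4.05-fold).

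Promoters of this group were read for the NF-kB letters GGG and TTTCC with 2 bases between them, on both strands, in the 250 bases before the start of each gene in RefSeq (GRCh38.p14). Of 18 tested members matched by symbol, 3 held them, and 1.73% of all 27305 such promoters did. The 2 with a difference of more than 2-fold are shown because they place the letters in genes higher in IM9: LTB, a membrane ligand that organises lymphoid tissue (difference 2.54), and BATF, an AP-1 factor of activated lymphocytes (difference 1.47). The U266 means of LTB by hour, 5.54 to 6.30, lay near or below the lowest detected levels, so 2.54 is not a measured fold. Both genes were picked for the match and lie outside the rule by which other genes were named. The stretch of LTB is chr6:31582472-31582541 on the minus strand and that of BATF chr14:75522219-75522271 on the plus strand, with the matched letters in capitals. A match is a description and no evidence of binding.
LTB: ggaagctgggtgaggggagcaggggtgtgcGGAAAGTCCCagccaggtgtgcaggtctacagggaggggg
BATF: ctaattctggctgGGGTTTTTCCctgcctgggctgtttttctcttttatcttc

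Signalling genes outside the cell also divided by line. TNF superfamily ligands and receptors were higher in IM9 in 14 of 24 cases and in U266 in 2, with a median of 1.81. Of the 24, 11 passed detection on fewer than 2 U266 arrays and 0 on fewer than 2 IM9 arrays. TNF itself, a ligand that activated B cells secrete, was 10.28 to 11.00 in IM9 and 4.79 to 5.23 in U266, and at least 23.5-fold higher. Its receptor TNFRSF1B was at least 35.5-fold higher and TNFSF14, which encodes the ligand LIGHT, at least 12.8-fold. In U266 the 2 were TNFRSF17, given above, and one of its ligands, TNFSF13B (BAFF, 3.62-fold).

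Interleukins and their receptors were higher in IM9 in 10 of 20 cases and in U266 in 3, beside 13.0% and 13.7% of all genes. Receptors led in IM9: IL4R and IL21R, through which helper T cells instruct B cells, were at least 20.5-fold and 20.01-fold higher, with 9 and 2 of 10 U266 arrays above background. The second probe of IL21R gave a difference of 0.36, against 4.51. IL18R1 was at least 18.5-fold higher. The inflammatory cytokine IL32 was also at least 18.5-fold higher. In U266 the 3 were IL6, IL6R and IL23A. IL6, the main growth factor of myeloma cells, was 8.81 to 9.53 in U266 (median 9.22) and 4.62 to 5.21 in IM9 (median 4.80), at least 7.88-fold apart. IL6R, its receptor, was 8.79 to 10.45 in U266 (median 9.80) and 4.88 to 5.35 in IM9, at least 11.0-fold apart, with a difference of -3.19 by its second probe. IL23A, which encodes a chain of interleukin 23, was 9.74-fold higher in U266.

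Among the JAK, STAT and SOCS genes, 6 of 16 were more than 2-fold higher in IM9 and 3 in U266. The shares over all genes were 13.0% and 13.7%. STAT5A was at least 32.7-fold and STAT6, which acts below IL4R, at least 34.4-fold higher in IM9, with 1 and 7 U266 arrays above background. STAT4 was 6.59-fold and STAT3, which acts below IL6, 2.40-fold higher in U266. STAT3 lost the 2-fold call with the deposited log2 values, the normexp background and the deposited detection p, at differences of -1.001, -1.10 and -0.98.

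Chemokines and their receptors were split, 8 of 16 higher in IM9 and 5 in U266, beside 13.0% and 13.7% of all genes. Their median absolute difference was 4.28. Of the 16, 6 passed detection on fewer than 2 U266 arrays and 2 on fewer than 2 IM9 arrays. Such members entered the test through the line where they were high, so this size is not set against that of all genes. On the IM9 side, CXCL10, an interferon-induced chemokine, was at least 46.8-fold higher, next to CCR7 and CCL22. On the U266 side, CCR2, a receptor for monocyte chemokines, was at least 25.2-fold higher and CXCR4 12.93 to 13.40 against 7.53 to 8.32 in IM9. CCL3, which activates osteoclasts in myeloma, was 15.16 to 15.49 in U266 and 10.36 to 11.56 in IM9, 23.5-fold apart, and shares near-identical copies with CCL3L1.

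Interferon-stimulated genes were higher in U266 in 10 of 21 cases and in IM9 in 3, with a median of -1.13. The shares over all genes were 13.7% in U266 and 13.0% in IM9. OAS1, a sensor of double-stranded RNA, was 12.71 to 13.37 in U266 and 8.91 to 9.55 in IM9, 13.1-fold apart, and its 3 probes gave differences of -3.71 to -1.27. OAS3, of the same family, was at least 28.6-fold higher, with 4 of 10 IM9 arrays above background. IFIT2, which blocks translation of viral RNA, was at least 5.91-fold higher and HERC5, the ligase for ISG15, 7.22-fold. IFITM1, a membrane protein that blocks virus entry, went the other way and was 11.66 to 12.16 in IM9 and 7.27 to 8.16 in U266, 22.1-fold apart.

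The interferon response element letters, TTTC and TTTC with 2 bases between them, stood in 10 of the 15 tested members that had a promoter in the table, and in 3.07% of all promoters of the same length. They occurred in genes on both sides: 3 of 7 called higher in U266, 1 of 2 called higher in IM9, the remainder among members not called. The stretches of OAS3 (chr12:112938301-112938473), HERC5 (chr4:88456964-88457084) and IFITM1 (chr11:313970-314039), all on the plus strand, are shown because these genes hold the same letters and differ in opposite directions; capitals mark the matches on either strand.
OAS3: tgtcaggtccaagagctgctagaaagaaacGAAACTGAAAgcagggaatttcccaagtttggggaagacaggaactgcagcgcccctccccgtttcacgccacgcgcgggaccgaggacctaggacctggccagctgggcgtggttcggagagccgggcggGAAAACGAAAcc
HERC5: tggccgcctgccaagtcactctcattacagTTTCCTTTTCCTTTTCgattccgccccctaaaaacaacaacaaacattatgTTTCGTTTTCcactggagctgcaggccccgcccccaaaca
IFITM1: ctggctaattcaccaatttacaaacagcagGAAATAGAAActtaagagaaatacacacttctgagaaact

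Genes of the secretory pathway were split. Of 34 chaperone, protein export and unfolded protein response genes, 8 were more than 2-fold higher in U266 and 1 in IM9, while at an adjusted p under 0.05 alone 16 were higher in U266 and 12 in IM9, and the median was -0.08. SEL1L and DERL1, parts of the channel that returns misfolded proteins to the cytosol, were 8.20-fold and 3.40-fold higher in U266. DNAJB9, a chaperone partner of BiP, was 11.71 to 12.14 in U266 and 8.84 to 9.64 in IM9, 6.52-fold apart. EIF2AK3, the stress sensor PERK, was 4.01-fold higher. CRELD2, a chaperone, was 2.24-fold higher in IM9 (difference 1.16, SE 0.0593, adjusted p = 0.0248), a call lost under several alternatives, with differences of 1.10 to 1.17.

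The promoter element by which unfolded proteins act, CCAAT and CCACG with 9 bases between them, was found in 6 of the 31 tested members with a promoter in the table and in 0.0806% of all promoters. It stood in genes of either direction. XBP1 and HSPA5, which encodes BiP (difference -1.31), were higher in U266, and CRELD2 in IM9. HSPA5 lies outside the rule by which other genes were named and was picked for the match. Their stretches are chr22:28800573-28800651 and chr9:125241361-125241439 on the minus strand and chr22:49918524-49918602 on the plus strand, with the element in capitals, in CRELD2 on the opposite strand.
XBP1: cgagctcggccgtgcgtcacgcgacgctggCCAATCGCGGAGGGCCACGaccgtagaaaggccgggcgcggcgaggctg
HSPA5: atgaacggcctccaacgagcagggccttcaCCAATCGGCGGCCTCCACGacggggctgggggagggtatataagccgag
CRELD2: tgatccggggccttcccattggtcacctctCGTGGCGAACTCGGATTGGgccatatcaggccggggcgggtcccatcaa

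The ATF4 branch, which answers amino acid shortage, gave 8 of 28 genes more than 2-fold higher in U266 and 1 in IM9, with a median of -0.70. DDIT3, the stress factor CHOP, was 10.63 to 11.00 in U266 and 7.76 to 8.48 in IM9, 6.25-fold apart. CHAC1, a glutathione-degrading target of ATF4, was at least 2.72-fold higher, and SLC7A11, the cystine carrier, at least 4.52-fold, with 1 IM9 array above background. SLC3A2, its partner chain, was 10.03 to 11.24 on 9 U266 arrays and 7.58 on the first replicate at 1 h, within the IM9 range of 7.49 to 8.94. Its difference was -1.97 (SE 0.338, adjusted p = 0.0205), and -2.28 without that array (adjusted p = 3.22e-05). Without the arrays of 0, 9 or 24 h the 2-fold call was lost, at -1.78, -1.92 and -1.62.

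**Figure D4:**
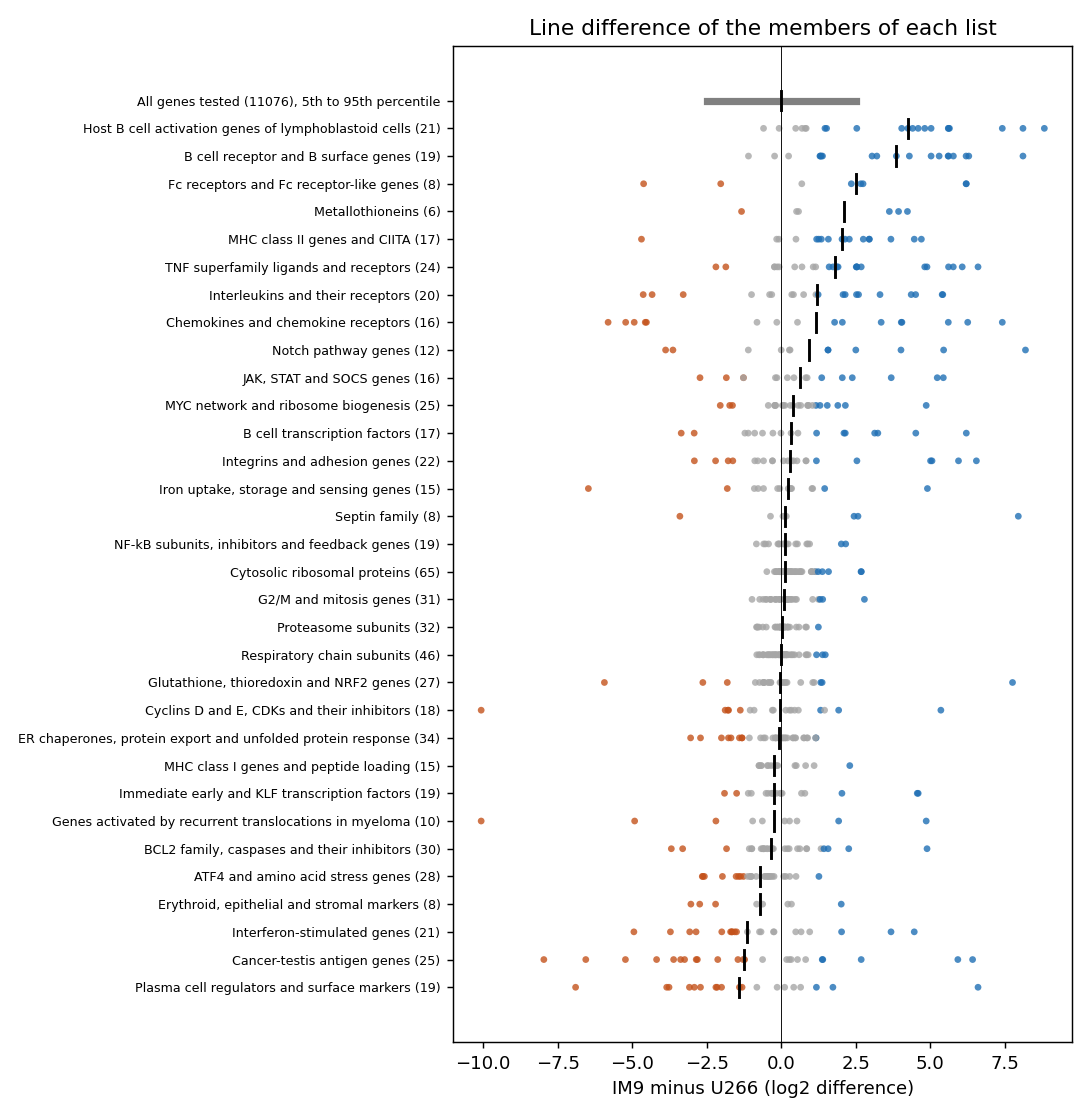
Difference between the lines (IM9 minus U266, log2) of each tested member of the gene lists reported here that had 6 or more tested members; the number tested is in brackets, black bars are list medians, and the grey bar spans the 5th to the 95th percentile of all 11076 genes. Blue members were more than 2-fold higher in IM9, orange members in U266 and grey members were not called. Medians run from 4.25 in the host activation genes to -1.40 in the plasma cell list, and ribosomal, proteasome and respiratory chain genes cluster near 0.

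Cell cycle and MYC genes showed a few large differences, in lists with medians of -0.0526 for the cyclins and kinases and 0.398 for the MYC network. MYC, the growth-promoting transcription factor, was 12.24 to 12.64 in IM9 (median 12.55) and 7.27 to 8.003 in U266 (median 7.71), 29.1-fold apart (difference 4.87, SE 0.0704, adjusted p = 2.04e-19). MYCL ran opposite, at 12.003 to 12.31 in U266 and 6.89 to 7.89 in IM9 by the brighter of its 2 probes. Of 25 genes of the MYC network and ribosome biogenesis, 6 were more than 2-fold higher in IM9 and 3 in U266. Over all genes the shares were 13.0% and 13.7%. At an adjusted p under 0.05 alone, 14 of the 25 were higher in IM9 and 8 in U266. MAX, the partner MYC binds DNA with, was at least 3.68-fold higher in IM9, with 8 of 10 U266 arrays above background and differences of 0.46 to 1.90 by its 3 probes, and BOP1, a factor of ribosome assembly, 4.45-fold. The 3 higher in U266 were MXD1, MXD3 and MXD4, which compete with MYC for MAX, at 4.12-fold, 3.30-fold and 3.10-fold.

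Among the cyclins and kinases that open the cell cycle, some members were higher in each line. Of 18 tested, 3 were more than 2-fold higher in IM9 and 5 in U266, beside 13.0% and 13.7% of all genes. CCND2 was high in both lines, at 13.04 to 13.58 in IM9 and 12.88 to 13.21 in U266, with a difference of 0.28 (SE 0.0449). CCND3 was 3.81-fold and CCNE1 2.50-fold higher in IM9, beside CDK6. CDKN2D, which inhibits CDK4 and CDK6, was 3.67-fold and the S phase factor E2F2 3.45-fold higher in U266, beside CCND1. CCNE1 lost the call with the deposited log2 values, the normexp background, equal medians and the deposited detection p, at 0.97, 1.09, 1.21 and 0.75.

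Of the genes named for stress and death, some were higher in each line. PHLDA3, an inhibitor of AKT, was at least 8.37-fold higher in IM9, and the death receptors FAS and TNFRSF10B were 3.76-fold and 5.82-fold higher. The stress genes SESN1 and TP53INP1 were 2.91-fold and 3.95-fold higher in U266. Of 30 genes of the BCL2 family and the caspases, 4 were more than 2-fold higher in IM9, among them CASP4, an inflammatory caspase (at least 11.96-fold), and PMAIP1, which encodes NOXA (at least 2.47-fold). In U266 there were 3: the killers BIK (at least 6.55-fold, 1 IM9 array above background) and HRK (at least 3.96-fold), and the protector BCL2L1, which encodes BCL-XL (11.98 to 12.29 against 10.14 to 10.46 in IM9, 3.56-fold). At an adjusted p under 0.05 alone, 9 of the 30 were higher in IM9 and 17 in U266, with a median of -0.325. The 2-fold counts lie near the shares over all genes, 13.0% and 13.7%.

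TFRC, which encodes the transferrin receptor that ch128.1Av binds, differed little. Its IM9 arrays ran from 14.35 to 14.62 and its U266 arrays from 13.88 to 14.45, and they overlapped. The difference was 0.24 (SE 0.0628), from -0.02 at 1 h to 0.50 at 9 h, and in the treated arrays it was 0.35. Of 15 iron genes tested, 2 were more than 2-fold higher in IM9 and 2 in U266, near the shares over all genes (13.0% and 13.7%). STEAP3, the reductase that readies endosomal iron for export, was 9.73 to 10.03 in IM9 and 4.64 to 5.52 in U266, at least 12.8-fold apart, and SLC25A37, the mitochondrial iron importer, was 2.75-fold higher. BMP6, the ligand that raises hepcidin in liver, was 10.97 to 11.68 in U266 and 4.75 to 5.33 in IM9, at least 37.0-fold apart, and HMOX1, which releases iron from heme, 3.496-fold higher in U266.

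Cancer-testis genes, silent in most adult tissues, were higher in U266 in 13 of 25 cases and in IM9 in 5. U266 led with MAGEB2, PAGE5 and MAGEA1, given above, MAGEB1 (at least 9.03-fold) and SAGE1 (at least 7.65-fold, 1 IM9 array above background). IM9 led with GAGE4 and GAGE7 (at least 39.7-fold). Notch genes were higher in IM9 in 6 of 12 cases and in U266 in 2, beside 13.0% and 13.7% of all genes. The receptor NOTCH1 was 10.29 to 11.21 in IM9 and 4.88 to 5.81 in U266, at least 27.5-fold apart, while NOTCH2 was 10.79 to 11.05 in U266 and 6.92 to 7.74 in IM9, 12.4-fold apart. DTX1, a target and regulator of Notch, was at least 12.6-fold higher in IM9, and HEYL, a target in other tissues, at least 6.74-fold higher in U266.

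Small families also held members on both sides, beside shares over all genes of 13.0% in IM9 and 13.7% in U266. Of 22 integrin and adhesion genes, 6 were more than 2-fold higher in IM9 and 4 in U266. Beside ITGB2, IM9 was higher in CD99, a surface glycoprotein of leukocytes (at least 26.3-fold), the neural cadherin CDH2 (at least 15.4-fold) and ALCAM, a ligand of CD6 (at least 13.5-fold). Of 6 metallothionein list members, MT1F (at least 9.69-fold), MT2A (15.3-fold) and MT1X (12.4-fold) were higher in IM9. MTF1, the zinc-sensing factor that switches them on, was 2.51-fold higher in U266. Probes of this family may cross-react. Of 8 septins, 3 were more than 2-fold higher in IM9 and 1 in U266. SEPTIN6 was 5.97-fold higher in IM9 and SEPTIN3 at least 7.83-fold higher in U266, with 1 IM9 array above background. Of 27 glutathione and NRF2 genes, 3 were higher in each line, near the shares over all genes. GSTO1 led in IM9 and GSTT1, a glutathione transferase that part of the population lacks, in U266 (at least 23.7-fold).

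Of 19 immediate early and KLF factors, 3 were more than 2-fold higher in IM9 and 2 in U266, with a median of -0.24. Of 10 genes activated by translocations in myeloma, 2 were higher in IM9, MYC and CCND3, and 3 in U266, CCND1, MYCL and TNFRSF17, with a median of -0.26. Over all genes tested, 13.0% were more than 2-fold higher in IM9 and 13.7% in U266.

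Housekeeping machinery differed least. Of 65 cytosolic ribosomal proteins, 6 were more than 2-fold higher in IM9 and 0 in U266, with a median of 0.14, and RPL37A and RPL29 were the highest at 6.45-fold and 6.40-fold. At an adjusted p under 0.05 alone, 35 were higher in IM9 and 6 in U266. Of 32 proteasome subunits, 1, PSMA3, passed the 2-fold margin (2.38-fold, IM9). Respiratory chain subunits gave 3 of 46 in IM9, led by NDUFA9 at 2.79-fold, and G2/M genes 3 of 31, among them UBE2C (at least 4.26-fold) and AURKB (2.63-fold). In U266, 0 of these 109 genes passed the margin, although 8, 18 and 10 of the proteasome, respiratory and G2/M genes were higher there at an adjusted p under 0.05.

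Markers of other cell types were mostly below background in both lines. Of 21 T and NK cell markers on the array 4 were tested and of 17 myeloid markers 3, and the defining CD3D, CD3E, CD14 and LYZ were not among them. Each list held 1 gene called against the 2-fold margin, NKG7, a granule protein, and CSF1R, both higher in IM9. Both rest on U266 values below background and are bounded only at 1.90-fold and 1.22-fold, so a difference above 2-fold is not shown. Of 18 erythroid, epithelial and stromal markers on the array, 8 were tested. HBB, a globin, was at least 3.66-fold higher in U266 and HBG1 at least 3.61-fold higher in IM9, while VIM, a filament protein of many cell types including lymphocytes, was 6.64-fold higher in U266 and PECAM1, an adhesion molecule of endothelium and leukocytes, at least 2.62-fold higher.

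The size of the line difference changed with the hour for 1945 genes (17.6%, interaction F test of limma, adjusted p under 0.05). Of the 2958 genes differing by more than 2-fold these were 563, and of the other 8118 genes 1382. Array brightness moved with line and hour, and with it as a covariate 137 genes were called, so the total is not a firm count. The number also fell to 815 without the second IM9 array at 24 h, to 1075 without the first U266 array at 24 h, and to 1256 and 1252 without the first and the second U266 array at 3 h. In 351 genes (3.17%) the lines were called in opposite directions at 2 hours. This count was not repeated with the brightness covariate and is not firm either. The genes described next were called with the brightness covariate, apart from PFKFB4.

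In a first group the U266 level was highest at 3 h. CDKN1A, which encodes the cell cycle inhibitor p21, stayed between 12.50 and 12.90 on the IM9 arrays. In U266 it was 10.84 and 11.10 at 0 h, 11.81 and 11.87 at 1 h, 12.40 and 12.36 at 3 h and 10.47 to 10.60 at 9 and 24 h. Its difference was 1.80 at 0 h, 0.24 at 3 h and 2.34 at 9 h (interaction adjusted p = 1.49e-05). Over all hours it was 1.46 (SE 0.207) and did not pass the 2-fold margin (adjusted p = 0.0752). TNFRSF10B, the receptor DR5, was at 9.57 and 9.49 at 3 h in U266 and 7.32 to 8.24 at the other hours, against 10.53 to 10.78 in IM9, so its difference was 2.72 at 0 h and 1.09 at 3 h (adjusted p = 5.60e-06).

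The same hour was the highest in U266 for SESN1, TNFSF9, ABCA1, TMEM119 and TP53INP1. SESN1, a stress protein that restrains TOR signalling, had means of 8.39, 8.71, 9.52, 8.08 and 8.26 at 0, 1, 3, 9 and 24 h in U266, and 6.40 at 3 h in IM9, its lowest there. Its difference was -3.12 at 3 h and -0.72 at 24 h. TNFSF9, the ligand of the costimulator 4-1BB, had a U266 mean of 7.67 at 0 h, 9.20 and 9.28 at 1 and 3 h and 7.72 and 7.68 later, against 10.66 to 11.06 in IM9. ABCA1, the cholesterol exporter, and TMEM119 were below background in IM9 and had their highest U266 means at 3 h, 11.07 and 10.37, and their lowest at 24 h, 9.59 and 8.78. TP53INP1, a nuclear stress protein, had its highest U266 mean at 3 h as well, 11.92 (difference -2.75), a call of interaction that the covariate of the 5th percentile of intensity removed (adjusted p = 0.161).

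In other genes the 24 h arrays of IM9 stood apart. ALDOC, a glycolytic enzyme, was 9.23 to 9.72 on the 8 earlier IM9 arrays and 11.43 and 11.59 at 24 h, against 11.82 to 12.26 in U266, so the difference was -2.60 at 9 h and -0.42 at 24 h. ANKRD37, a hypoxia-inducible gene, had IM9 means of 11.49 to 12.34 up to 9 h and 13.58 at 24 h, and U266 means of 8.14 to 8.82. PFKFB4, a regulator of glycolysis, was lower in IM9 up to 9 h, with differences of -1.65 to -1.26, and higher at 24 h, at 1.42. Its IM9 arrays were 11.25 and 11.36 at 24 h and its U266 arrays 9.28 and 10.49, and its interaction was not called with the brightness covariate (adjusted p = 0.105). TUBA4A, a tubulin, had IM9 means of 10.56 to 10.87 up to 9 h and 9.88 at 24 h, where its difference was 0.23; its interaction was not called with equal medians (adjusted p = 0.0642).

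In a last group the early hours of IM9 stood apart. ID1, an inhibitor of differentiation factors, had IM9 arrays of 7.60, 8.05, 8.19 and 8.37 at 0 and 1 h and 5.18 to 5.96 from 3 h on, while U266 stayed at 6.43 to 6.83. Its difference was 1.15 and 1.67 at the first 2 hours and -0.83, -1.07 and -1.37 at the later 3. The immediate early factors FOS and FOSB were highest at 1 h in IM9, at means of 8.90 and 8.97, and FOS also in U266, at 7.48. FOS was above background on 4 arrays of each line, FOSB on 2 IM9 and 3 U266 arrays and ID1 on 4 IM9 arrays, so their low levels are bounds. The FOS difference was 1.42 at 1 h and -1.41 at 3 h. CXCL8, the neutrophil chemokine interleukin 8, was 10.07 and 10.22 at 1 h in IM9 and 8.09 to 9.25 at the other hours, and not well above background in U266. FCRLB, an intracellular Fc receptor-like protein, had differences of 2.28 at 3 h and 3.54 at 24 h, a call of interaction that the 5th percentile covariate removed (adjusted p = 0.0911).

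**Figure D5:**
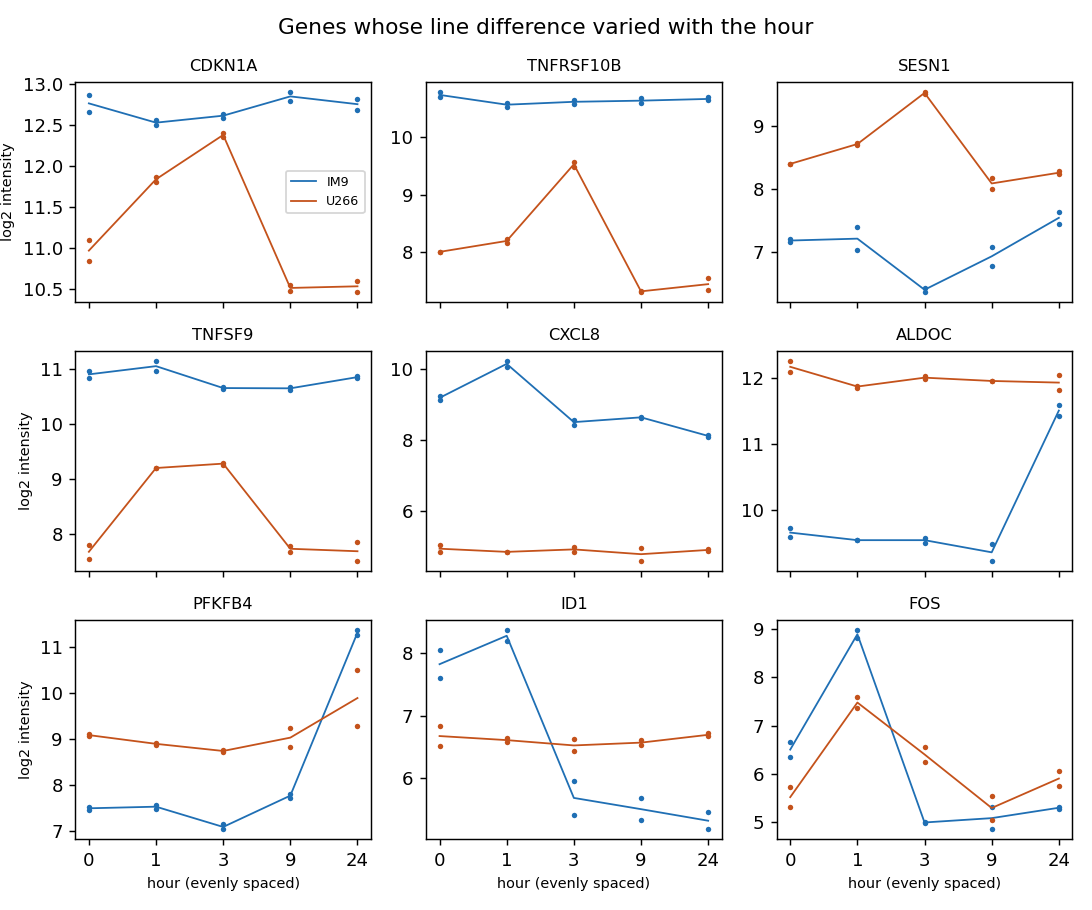
Log2 normalized intensity of 9 genes at 0, 1, 3, 9 and 24 h in IM9 (blue) and U266 (orange); points are the 2 arrays of each group and lines join their means, each panel has its own vertical scale, and hours are evenly spaced. CDKN1A, TNFRSF10B and SESN1 are highest at 3 h in U266, ALDOC and PFKFB4 are highest at 24 h in IM9, and ID1 is lower from 3 h on in IM9.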

How the data were processed

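Total RNA was read on Illumina BeadChips. The deposited files give an intensity for each of 20589 probes per array, with background still in it, as the values show. The submitters' processing notes list BeadStudio and no version. The deposited detection score, a fraction, was turned into a detection p as 1 minus the score. On every array 59 to 106 bright probes failed it, 197 in all, so it was replaced on each array by its running median over intensity rank (window 101 probes), made monotone; the deposited p itself is an alternative. The authors' deposited log2 values, quantile-normalized as found from the values, are another. A further 78 columns were not used.

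Intensities went through neqc of limma 3.58.1 in R 4.3.3, with an offset of 16. A probe was kept if at least 2 of the 20 arrays gave it a detection p under 0.01 (11565 were), and 1 probe a gene, the brightest, was tested. Of all probes 18332 had 1 symbol and 2257 none. Each kept probe without a symbol was tested as a gene of its own, 1038 of the 11076. Of 468 genes with several kept probes, 120 had probes that differed by over 1, and in 4 they lay over 2-fold apart in opposite directions. The line difference was fitted with lmFit and eBayes with hour as a block (14 residual degrees of freedom), the 2-fold margin tested with treat, and the hourly differences and the interaction taken from 10 group means (10 residual degrees of freedom). Tests were two-sided, with Benjamini-Hochberg adjustment over all 11076 genes. The fits were tested on simulated data.

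Genes were named by a rule: genes always followed, of which 10 were tested; the 12 largest each way among genes at least 2-fold at every hour with no overlap, and the 8 largest of those detected on all 20 arrays; up to 5 members each way of each list (not all are named); the 6 smallest interaction p each way; and up to 6 genes called in opposite directions. XIST and Y-linked genes were left out, and some named genes and the tally of 1 list are not reported here. Members and lists were chosen with earlier results of these data known. Promoters are RefSeq's, of GRCh38.p14. The number of arrays limits the precision.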

Additional observations from a re-analysis of the deposited data

Results flagged for a closer look

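For 28 of the 348 gene and line groups tested, 1 array lay far from the other 9 of its line, its gap to the nearest exceeding 0.466 of the whole range; chance flags about 1 in 20 groups. All values are log2 levels. The first IM9 array at 0 h stood apart for MYC at 12.24 and RPL37A at 11.39. The second IM9 array at 0 h stood apart for EIF2AK3 at 7.92. The first IM9 array at 1 h stood apart for BCL6 at 6.12 and MAGEB1 at 5.88. The first IM9 array at 3 h stood apart for SEL1L at 6.35. The first IM9 array at 9 h stood apart for EBI3 at 13.53 and CDK6 at 12.78. The first IM9 array at 24 h stood apart for HMCES at 8.15, NFKB1 at 13.68 and GAGE7 at 10.79. The second IM9 array at 24 h stood apart for STAT6 at 11.06 and NOTCH1 at 10.29. The first U266 array at 0 h stood apart for PAGE5 at 13.20. The first U266 array at 1 h stood apart for SLC3A2 at 7.58. The first U266 array at 3 h stood apart for RFTN1 at 4.47. The first U266 array at 9 h stood apart for IL18R1 at 5.67. The second U266 array at 9 h stood apart for IRF8 at 4.69 and CXCL8 at 4.59. The first U266 array at 24 h stood apart for CPVL at 12.77, CDK6 at 6.74, CCL3L1 at 13.31, CCL3 at 15.16, BMP6 at 10.97, SEL1L at 9.60 and GAGE7 at 5.51. The second U266 array at 24 h stood apart for IFITM1 at 8.16 and PFKFB4 at 10.49.

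The difference between the lines differed between hours for 48 of the 174 genes described (interaction F test of limma, adjusted p under 0.05, against 17.6% of all genes). Some of the 48 were described because of this test, so the share is not a result. The adjusted p was smallest for TNFRSF10B (5.6e-06), CDKN1A (1.49e-05), ALDOC (2.04e-05), TUBA4A (2.04e-05), SESN1 (4.65e-05), TNFSF9 (5.69e-05), FOSB (6.01e-05) and ID1 (6.02e-05). Next came ABCA1 (8.35e-05), CXCL8 (8.4e-05), ANKRD37 (0.000242), FCRLB (0.00027), TMEM119 (0.000283), TP53INP1 (0.000337), FOS (0.000418) and PFKFB4 (0.00107). These were followed by DNAJB9 (0.00133), IL6R (0.00385), HMOX1 (0.00498), CD79A (0.00507), IFIT2 (0.00529), CCL3 (0.00557), IGLL1 (0.0103) and SEPTIN3 (0.0108). Further along were MTF1 (0.0108), CCL3L1 (0.0135), IRF4 (0.0149), TFRC (0.0159), MAGEA1 (0.0169), SEPTIN6 (0.017), CENPV (0.0179) and EBF1 (0.0191). Larger values were those of CXCR4 (0.0241), CHAC1 (0.0274), DENND2D (0.0277), SEPTIN9 (0.0315), PAGE5 (0.0325), STEAP3 (0.0329), NOTCH2 (0.034) and NKG7 (0.0356). The largest were those of CAV1 (0.0364), ITGB2 (0.0398), QPCT (0.0418), OAS3 (0.0424), PHLDA3 (0.044), MT1F (0.0453), SLC3A2 (0.0464) and MYC (0.0467). Array brightness moved with line and hour, and with it as a covariate 137 of all genes were called.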

How the results depend on the processing

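Most line calls held under the alternatives: over all of them, 6306 single-gene values kept direction and call, 95 lost the call, 11 gained one and 23 reversed. Of the 95 losses, 71 arose in settings other than leaving out 1 array. STAT3, CCNE1, SLC3A2 and CRELD2, whose losses are given above, account for only part of the 95. Other genes described here also lost the 2-fold call under some alternative. The count of genes differing by more than 2-fold was 1961 with the authors' deposited log2 values and 1616 with the deposited detection p, an alternative chosen after seeing the data; in the treated arrays these counts were 1932 and 1611. With the deposited detection p, 1472 genes differed at least 2-fold at every hour, and with the 5th percentile covariate 2170. The interaction count was the least stable: 3827 with equal medians, 1081 without a filter, 137 with the brightness covariate and 316 with the 5th percentile covariate (chosen after seeing the data). Leaving out 1 array gave 9099 to 9267 genes for the plain call, 2912 to 2977 for the 2-fold margin, 2642 to 2715 for every hour and 815 to 2123 for the interaction.

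The reversals were those of ID1 and FOS, neither called in the main fit. The ID1 difference was 0.07199 with the deposited log2 values, 0.04401 with normexp, 0.07837 with the deposited detection p, 0.09784, 0.1557 and 0.2321 without 3, 9 or 24 h, and -0.227 to 0.02302 leaving out 1 array. The FOS difference was -0.04749 with equal medians, -0.09987 with brightness, -0.1043 with the 5th percentile covariate, -0.2033 and -0.3114 without 0 or 1 h, and -0.08135 to 0.1594 leaving out 1 array. The cause was not tested. The labels do not say whether replicate numbers pair the samples of the 2 lines. The correlation of replicate differences between lines was -0.086 to 0.297 by hour, highest at 0 h, which does not settle it. With the replicate block, 9048 genes were called, 2895 by more than 2-fold, 2698 at every hour and 1118 for the interaction. Signal near background limits folds to bounds.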

Other observations

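Differences were also summed by the autosome on which RefSeq places each gene, as a description with no test. Genes on chromosome 13 had the highest median difference, 0.515 over 171 genes, with 24.0% of them more than 2-fold higher in IM9 and 7.60% in U266. Chromosomes 21 and 15 had the lowest, -0.400 over 102 genes and -0.338 over 328. On chromosome 15, 18.6% of genes were more than 2-fold higher in U266 and 6.71% in IM9, and on chromosome 21 these shares were 21.6% and 8.82%. Over all genes tested the shares were 13.7% and 13.0% and the median -0.01. Among genes detected on all 20 arrays the 3 medians were 0.510, -0.384 and -0.329 for chromosomes 13, 21 and 15. The remaining autosomes had medians between -0.207 (chromosome 6) and 0.223 (chromosome 4).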
